A study of Mus musculus with 6 samples.

Results

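The chemokine ligand family was taken as every probe set whose 1 gene symbol on the array platform begins with Ccl, Cxcl, Cx3cl or Xcl followed by a number. This rule found 51 probe sets of 33 genes, out of 34958 probe sets of 18194 genes with 1 symbol. A probe set is a group of short oligonucleotides on the array that reads 1 transcript or a few related ones, and its intensity is its brightness after labelled RNA has bound. Of the 51 probe sets, 32 had a mean intensity above 75 over the 6 arrays, which is 62.7%, against 66.1% of all probe sets with 1 symbol. These 32 belong to 21 genes, while 12 genes had no probe set above 75. A further 4 probe sets list a chemokine name among several symbols. They are not members, and Ccl19, Ccl21a and their gene copies are therefore not reported.

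Chemokines are small secreted proteins that steer white blood cells along a concentration gradient through G protein-coupled receptors. They are named after the spacing of conserved cysteines near their start, as CC, CXC, CX3C and XC ligands. Some are made at rest and place cells within a tissue, and others are induced by infection, injury or interferon. In lung they are made by epithelium, endothelium, smooth muscle, fibroblasts and resident macrophages as well as by arriving cells.

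Each array measured whole lung of 1 female FVB/N mouse, and there were 3 groups of 2 mice. Control mice carried SM22-rtTA alone, which is a doxycycline-dependent activator under the promoter of the smooth muscle gene SM22 (Tagln). The R899X mice were heterozygous for SM22-rtTA and for TetO7-BMPR2-R899X, which places BMPR2 with the R899X mutation, a truncating change of this bone morphogenetic protein receptor, under doxycycline control. In the R899X normal RVSP group the right ventricular systolic pressure (RVSP) at death was near normal, and in the R899X high RVSP group it was substantially raised. Every mouse, controls included, was given doxycycline in its food for 9 weeks from 4 weeks of age and was killed at 13 weeks. The comparisons set lung expression of R899X mice with and without raised pressure against that of mice without the TetO7 transgene. The mutation and the presence of the transgene cannot be told apart here, and the pressure groups are defined by RVSP at death. The transgene can be switched on only where the SM22 promoter is active, whereas the chemokines were read in the whole organ.

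Median intensity ranged from 128 to 141 over the 6 arrays. All 7 markers of lung epithelium and endothelium that were checked (among them Sftpc, Scgb1a1 and Pecam1) read above 75. The 3'/5' ratio of the beta-actin control probe sets, a sign of RNA quality, was 1.89 in control 1 and 1.64 in R899X normal RVSP 1 and lay between 1.27 and 1.45 in the other 4 mice. A fit without these 2 mice, which leaves 1 mouse in each of their groups, was among the alternatives. Numbers after group names only tell the mice apart, and values are listed in the order 1 and 2. With 2 mice a group the number of arrays limits the precision of every value. In whole lung, fewer cells of a type and less RNA per cell cannot be told apart.

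Across the family, differences between groups were about as large as differences between mice of 1 group. The median absolute difference in log2(intensity + 16) was 0.257 between the 2 mice of a group and 0.261 between mice of different groups, over the 32 probe sets above 75. For all 27022 probe sets tested these values were 0.229 and 0.228. The same 32 probe sets were the members that entered the test, which left out the dimmest 40% of probe sets (those with a mean of up to 78.3). The faintest of them was that of Ccl12, with a mean of 78.6, and the brightest one left out was that of Cxcl5, with a mean of 73.3.

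**Figure D1:**
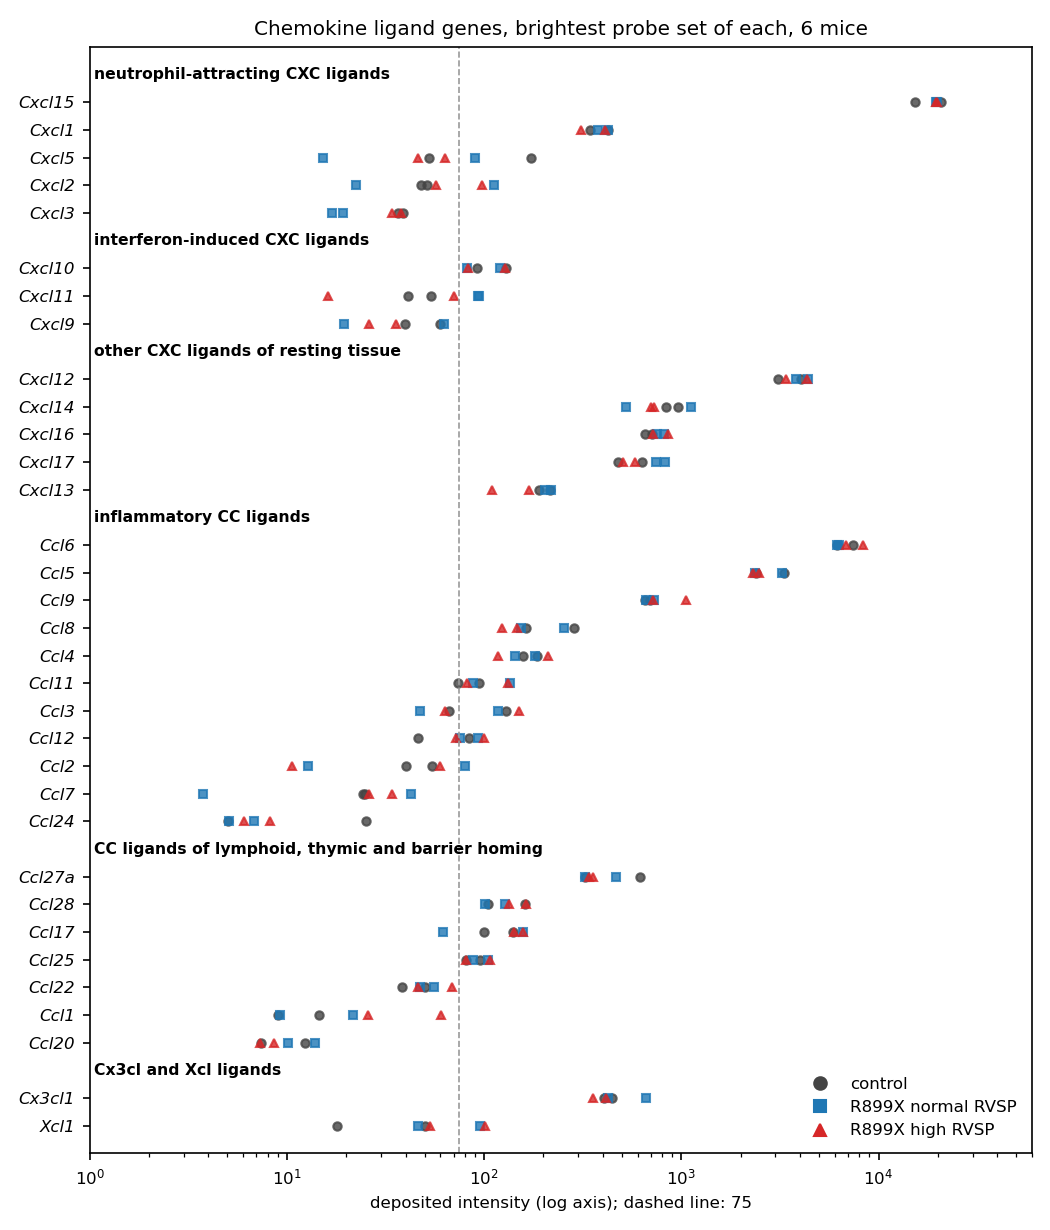
Deposited intensity (log axis) of the brightest probe set of each of the 33 chemokine ligand genes, grouped by role, with 1 point for each of the 6 mice and a dashed line at 75. Points of the 3 groups lie among each other for most genes. Of the 12 genes whose brightest probe set averaged below the line, several scatter widely, such as Ccl7 and Cxcl5. Others do not, such as Ccl20 and Ccl22. Brightness differs between probe sets for reasons other than RNA amount, so rows are not to be compared with each other.

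In R899X normal RVSP against control, 0 of the 32 member probe sets passed limma's moderated test at an adjusted p of 0.05, against 0% of all 27022 tested. The test is two-sided with Benjamini-Hochberg adjustment over all probe sets tested, and ± after a log2 difference gives its standard error. At an unadjusted p under 0.05 the count was 2 members (6.25%), against 4.29% of all. Member differences ran from -0.25 to 0.66, with 19 above 0 and a median of 0.085, where the median of all was -0.001. In 5 member probe sets both R899X mice read above both controls (15.6%, against 14.4% of all), and in 0 both read below (against 15.1% of all). The 5 were those of Cx3cl1 (its second brightest), Cxcl12 (its dimmest), Cxcl17 and both of Cxcl16.

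In R899X high RVSP against control, 0 member probe sets passed, against 0% of all, and 2 had an unadjusted p under 0.05 (6.25%, against 5.57% of all). Differences ran from -0.62 to 1.43 with a median of 0.072, and 20 of 32 were above 0. In 8 probe sets both high RVSP mice read above both controls (25.0%, against 19.2% of all), and in 4 both read below (12.5%, against 18.2% of all). The smallest adjusted p among the members was 0.814 in limma.

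In R899X high RVSP against R899X normal RVSP, 0 passed, against 0% of all, and 2 had an unadjusted p under 0.05 (6.25%, against 2.61% of all). The range was -0.58 to 0.97, with a median of -0.024 and 15 of 32 above 0. High RVSP mice read above both normal RVSP mice in 4 probe sets (12.5%, against 16.7% of all) and below both in 6 (18.8%, against 15.5% of all). With all 4 R899X mice set against the controls, 0 passed, against 0% of all, and 2 had an unadjusted p under 0.05 (against 5.91% of all). All 4 R899X mice read above both controls in 4 member probe sets (12.5%, against 7.52% of all) and below both in 0 (against 7.69% of all). These 4 were the second brightest probe set of Cx3cl1, the dimmest of Cxcl12 and both of Cxcl16. The comparisons against control share the same 2 control mice.

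**Figure D2:**
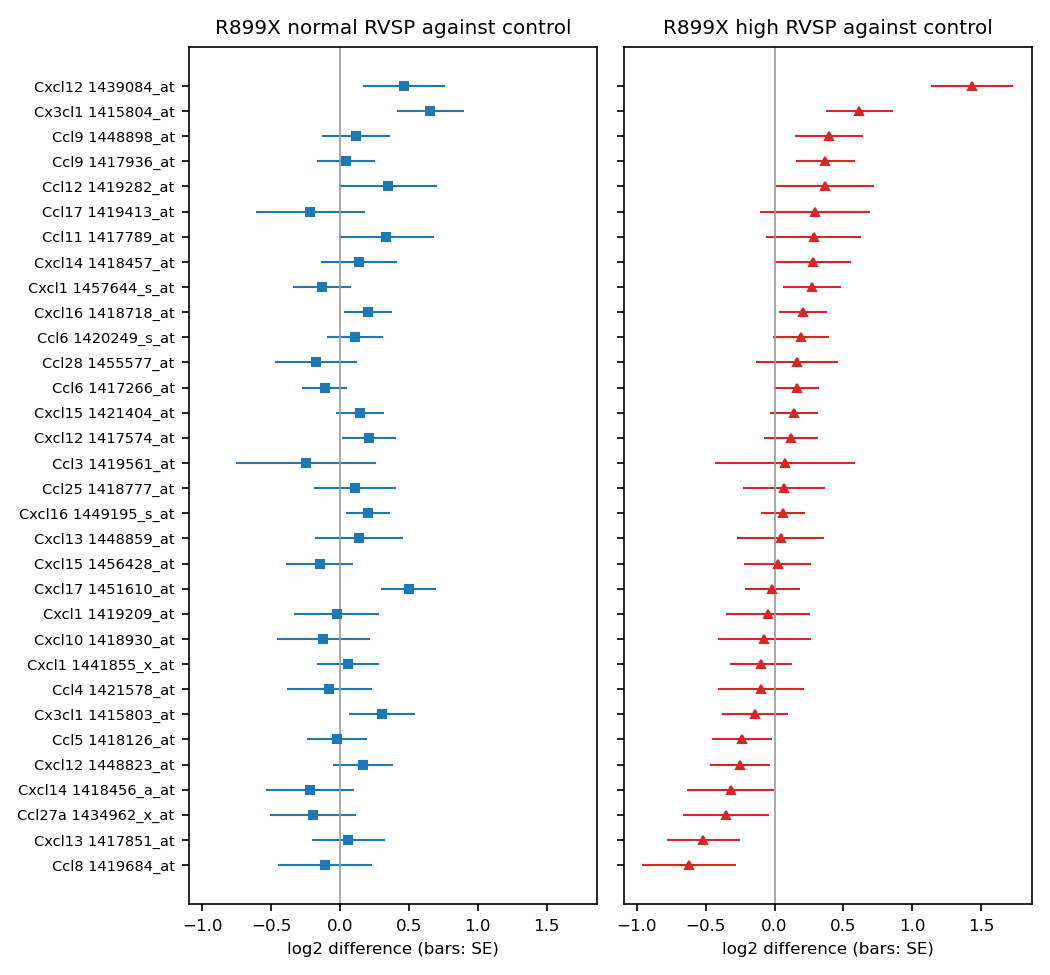
Log2 difference (x axis, bars are standard errors from limma) of the 32 tested chemokine ligand probe sets for R899X normal RVSP against control on the left and R899X high RVSP against control on the right, in the order of the right panel. Most bars reach 0, and the top row, the dimmest Cxcl12 probe set, is at 0.46 on the left and 1.43 on the right.

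The CXC ligands that attract neutrophils through Cxcr2 or related receptors had 5 genes on the array, of which Cxcl15 and Cxcl1 read above 75. Cxcl15, or lungkine, is a chemokine made by lung epithelium. Its brighter probe set read 20732 and 15318 in the controls, 19743 and 19606 in R899X normal RVSP and 19850 and 19512 in R899X high RVSP. Control 2 was the low mouse, and the other 5 lay close together. Its log2 difference from control was 0.14 ± 0.17 in each R899X group, and 0.36 in each without control 1 and R899X normal RVSP 1. The second probe set of Cxcl15 was also lowest in control 2, at 8923, and highest in control 1, at 15344, so the controls enclosed the R899X mice in both. The 250 bases before the start of Cxcl15 (RefSeq, GRCm38.p6, chr5:90794284-90794533, plus strand) are shown because this is the ligand known for lung; this stretch, like the motifs searched here, was picked after values and sequences were seen. Capitals mark the letters TATAAA, which begin 27 bases before the start; 12.4% of 32851 upstream stretches of this length hold these letters on either strand.
Cxcl15: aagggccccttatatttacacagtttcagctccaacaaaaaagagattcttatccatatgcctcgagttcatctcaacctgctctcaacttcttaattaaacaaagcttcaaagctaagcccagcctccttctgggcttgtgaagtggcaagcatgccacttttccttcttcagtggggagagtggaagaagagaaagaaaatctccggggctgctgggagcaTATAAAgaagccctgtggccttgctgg

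Cxcl1, the mouse ligand also called KC, was read by 3 tested probe sets that did not point one way. The brightest read 343 and 427 in the controls, 377 and 424 in R899X normal RVSP and 309 and 412 in R899X high RVSP. Here the groups overlapped. The second read 301 and 253 in the controls, 234 and 269 in R899X normal RVSP and 358 and 317 in R899X high RVSP, so that both high RVSP mice were above the other 4. Its difference from control was 0.27 ± 0.21 (limma adjusted p = 0.893) and from normal RVSP 0.40 ± 0.21 (limma adjusted p = 1.0). The third gave -0.05 ± 0.31 for high RVSP against control. Both of the brighter ones are of a kind that can bind several transcripts. Cxcl2, Cxcl3 and Cxcl5 read below 75 on average and were not tested. Cxcl5, which epithelium makes, ranged from 15.2 in R899X normal RVSP 1 to 172 in control 2, and Cxcl2 from 22.4 in R899X normal RVSP 1 to 113 in R899X normal RVSP 2. Both extremes of Cxcl2 thus came from 1 group.

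The interferon-induced ligands Cxcl9, Cxcl10 and Cxcl11, which draw activated T cells through Cxcr3, were dim. Only Cxcl10 had a probe set above 75. It read 130 and 92.1 in the controls, 82.0 and 120 in R899X normal RVSP and 128 and 82.8 in R899X high RVSP. Every group held 1 higher and 1 lower mouse, and the difference of high RVSP from control was -0.07 ± 0.34 (limma adjusted p = 0.987), which turned to 0.14 without control 1 and R899X normal RVSP 1. The brighter probe set of Cxcl9 lay between 19.4 and 62.8 and that of Cxcl11 between 16.2 and 94.5, both below 75 on average. The second probe sets of Cxcl9 and Cxcl11 averaged 33.8 and 32.6.

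These values were set beside genes of the interferon gamma response, from a list of 12 genes of which 10 were tested. Igtp, an interferon-inducible GTPase, read 5964 and 1085 in the controls, 2210 and 3676 in R899X normal RVSP and 868 and 1063 in R899X high RVSP. Control 1 was highest, control 2 lay near the high RVSP mice, and both normal RVSP mice lay between. In R899X high RVSP against normal RVSP, 8 of the 10 tested genes were lower without overlap between mice, against 15.5% of all probe sets. The list median was -0.811. Of the 10, 0 passed in limma, and 5 had an unadjusted limma p under 0.05, against 2.61% of all probe sets. Cxcl10 differed by 0.05 ± 0.34 in that comparison. In high RVSP against control, 5 of the 10 were lower without overlap (against 18.2% of all), with a list median of -0.507. There 0 had an unadjusted limma p under 0.05 (against 5.57% of all). In normal RVSP against control 0 lay above and 0 below without overlap (against 14.4% and 15.1% of all), with a median of 0.202. In all R899X against control 0 lay above and 0 below (against 7.52% and 7.69%), with a median of -0.158. Ifng itself, the cytokine that induces these ligands, averaged below 75 and read 58.0 and 22.7 in the controls, 43.0 and 51.6 in normal RVSP and 21.0 and 19.7 in high RVSP. R899X high RVSP 1 was the lowest of the 6 mice for Igtp and among the highest 3 for Cxcl10. Among the natural killer cell markers, 6 of 7 had a probe set with 1 symbol, and all 6 read above 75. Their summed intensity was 8157 and 4114 in the controls, 5303 and 6426 in normal RVSP and 4745 and 4772 in high RVSP, and their part in these values was not tested.

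**Figure D3:**
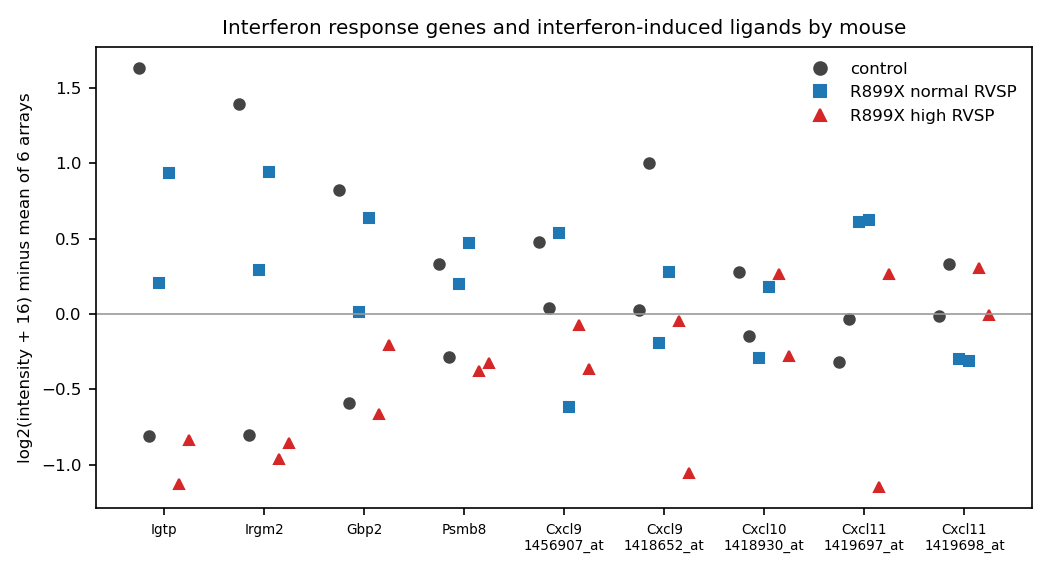
Log2(intensity + 16) minus the mean of the 6 arrays (y axis) for 4 interferon response genes, Igtp, Irgm2, Gbp2 and Psmb8, and for the 5 probe sets of Cxcl9, Cxcl10 and Cxcl11, with 1 point a mouse. Both high RVSP mice and control 2 lie below 0 for the 4 response genes, whereas for Cxcl10 each group has 1 mouse above and 1 below 0.

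The stretches of 250 bases before the starts of Cxcl9, Cxcl10 and Igtp are shown because all hold the core of an interferon response element. The RNA values above differed in pattern between Cxcl10 and Igtp, whereas Cxcl9 averaged below 75 and was not tested. The stretches were picked after the sequences and values were seen. They come from RefSeq (GRCm38.p6), at chr5:92328080-92328329 on the minus strand for Cxcl9, chr5:92348890-92349139 on the minus strand for Cxcl10 and chr11:58199306-58199555 on the plus strand for Igtp. Capitals mark GAAANNGAA, searched on both strands, which begins 175, 213 and 34 bases before the start.
Cxcl9: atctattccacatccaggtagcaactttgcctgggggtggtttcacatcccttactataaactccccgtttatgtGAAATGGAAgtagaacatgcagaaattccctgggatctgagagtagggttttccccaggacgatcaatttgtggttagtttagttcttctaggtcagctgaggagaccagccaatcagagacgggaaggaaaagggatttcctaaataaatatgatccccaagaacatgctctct
Cxcl10: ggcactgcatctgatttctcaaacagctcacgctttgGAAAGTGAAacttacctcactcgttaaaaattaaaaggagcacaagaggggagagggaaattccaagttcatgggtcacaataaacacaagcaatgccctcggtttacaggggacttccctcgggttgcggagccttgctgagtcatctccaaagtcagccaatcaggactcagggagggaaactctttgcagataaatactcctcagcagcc
Igtp: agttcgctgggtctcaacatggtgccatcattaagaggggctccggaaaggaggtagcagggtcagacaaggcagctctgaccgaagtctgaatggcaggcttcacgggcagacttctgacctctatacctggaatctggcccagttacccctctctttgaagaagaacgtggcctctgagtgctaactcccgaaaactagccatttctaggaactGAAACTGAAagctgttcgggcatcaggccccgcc

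Of the 33 member genes, 23 had an upstream stretch in the RefSeq table. GAAANNGAA was found in 5 of them (Ccl1, Ccl3, Cxcl9, Cxcl10 and Cxcl14), against 7.13% of all 32851 stretches. GGANNTNCC, a core of sites for NF-kB, a transcription factor of inflammation, was found in 7 (Ccl1, Ccl12, Cxcl1, Cxcl2, Cxcl3, Cxcl9 and Cxcl10), against 12.2% of all. It occurred at 3 positions for Cxcl10 and 1 for Cxcl9, none of which overlapped the capitals. A match of letters describes the sequence and does not show that a factor binds there.

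Among CXC ligands of resting tissue, all 5 genes and their 10 probe sets read above 75. Cxcl12, which holds haematopoietic and immune cells in tissues through Cxcr4 and is made by stromal and endothelial cells, gave the widest separation of groups in the family, but only in its dimmest probe set. That probe set, singled out after its values were seen, read 74.8 and 60.5 in the controls, 82.2 and 119 in R899X normal RVSP and 183 and 239 in R899X high RVSP. The groups did not overlap, and high RVSP was above normal RVSP, which was above control. The log2 difference of high RVSP from control was 1.43 ± 0.30, with an unadjusted p of 0.00139 and an adjusted p of 0.814 in limma, and 40 of 27022 probe sets had a smaller p. From normal RVSP it was 0.97 ± 0.30 (limma adjusted p = 1.0). Over 14 alternatives the difference from control stayed between 1.06 and 1.62, with limma adjusted p from 0.0266 to 1.0. It passed in 1 of them, which left out control 1 and R899X normal RVSP 1 together and so left 1 mouse in each of those groups.

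The brighter probe sets of Cxcl12 did not show this order. The brightest read 4037 and 3095 in the controls, 4399 and 3806 in R899X normal RVSP and 4352 and 3397 in R899X high RVSP, and all groups overlapped. Its difference of high RVSP from control was 0.12 ± 0.20 (limma adjusted p = 0.956). The intermediate one read 1083 and 1137, 1004 and 1552, and 895 and 967 in the same order of groups, so that both high RVSP mice lay below the other 4. That is a difference from control of -0.25 ± 0.22 (limma adjusted p = 0.905), opposite in sign to the dimmest probe set. Which transcript each probe set reads was not analysed here.

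**Figure D4:**
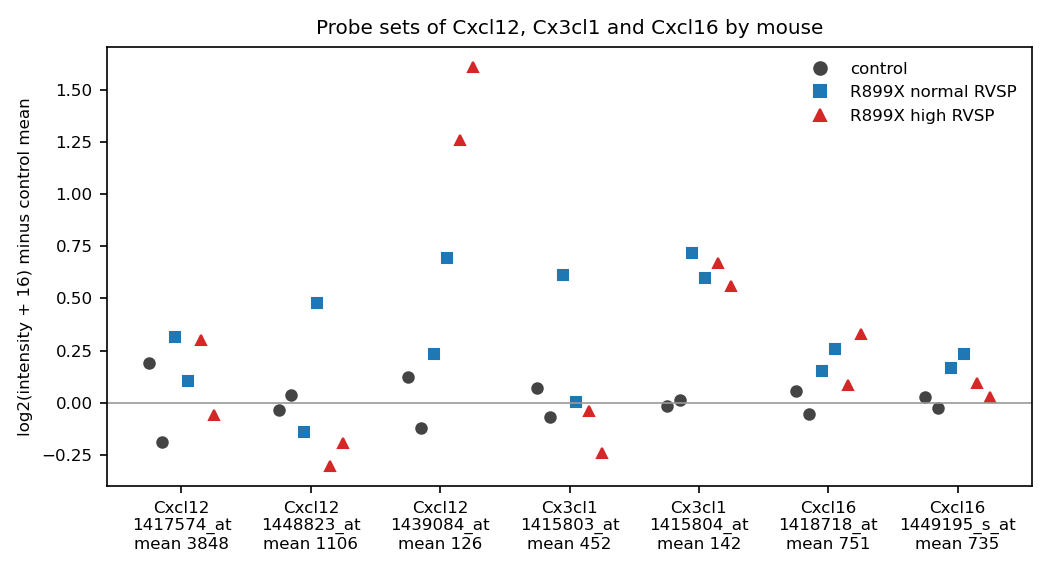
Log2(intensity + 16) minus the control mean (y axis) for the tested probe sets of Cxcl12, Cx3cl1 and Cxcl16, with 1 point a mouse and the mean intensity under each name. The high RVSP mice are farthest above control in the dimmest Cxcl12 probe set. All 4 R899X mice are above both controls in the second brightest Cx3cl1 probe set and in both Cxcl16 probe sets. R899X high RVSP 2 is highest in the brighter Cxcl16 probe set but next to control 1 in the other.

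Cxcl16, a membrane-bound ligand of Cxcr6, was the gene whose probe sets both had all 4 R899X mice above both controls. The brighter read 706 and 653 in the controls, 757 and 815 in R899X normal RVSP and 721 and 857 in R899X high RVSP. The separation was small, with 721 next to 706. Its difference of all R899X from control was 0.21 ± 0.15 (limma adjusted p = 0.871), and that of the other probe set 0.13 ± 0.14 (limma adjusted p = 0.912).

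Cxcl17, a mucosal chemokine of airway and other epithelia, was higher in R899X normal RVSP than in the other groups. It read 479 and 631 in the controls, 823 and 746 in R899X normal RVSP and 582 and 507 in R899X high RVSP. The high RVSP mice lay within the range of the controls. The difference of normal RVSP from control was 0.50 ± 0.20 (unadjusted p = 0.0371, adjusted p = 0.987 in limma). It was 0.30 without control 1, 0.69 without control 2 and 0.24 without control 1 and R899X normal RVSP 1. That of high from normal RVSP was -0.52 ± 0.20 (unadjusted p = 0.0326, adjusted p = 1.0 in limma).

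Cxcl13, which guides B cells through Cxcr5, read 217 and 189 in the controls, 205 and 219 in R899X normal RVSP and 110 and 169 in R899X high RVSP in its brighter probe set. Both high RVSP mice were below the other 4, with a difference from control of -0.52 ± 0.27 (limma adjusted p = 0.865). Leaving out R899X high RVSP 1 gave -0.24, and leaving out its group mate gave -0.80. The other probe set read 121 and 217 in the high RVSP mice, the lowest and the highest of its 6 values, and differed from control by 0.04 ± 0.32. Cxcl14, a ligand of epithelium and fibroblasts, also had probe sets of opposite sign, at -0.32 ± 0.32 and 0.28 ± 0.28 for high RVSP against control. Adding the beta-actin ratio to the fit turned the first of these to 0.22.

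Inflammatory CC ligands attract monocytes, eosinophils and T cells through receptors such as Ccr1, Ccr2 and Ccr3. Of 11 genes, 8 had a probe set above 75, and Ccl2, Ccl7 and Ccl24 did not. Ccl2, the main ligand of Ccr2, ranged from 10.7 in R899X high RVSP 2 to 79.6 in R899X normal RVSP 2, and its group mates R899X high RVSP 1 and R899X normal RVSP 1 read 59.9 and 12.8. Mice of 1 group thus differed more than the 2 controls, at 54.2 and 40.1.

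Ccl6 and Ccl9, mouse ligands of Ccr1 that myeloid cells make, were both highest in R899X high RVSP 2. The brighter probe set of Ccl9 read 651 and 691 in the controls, 660 and 725 in R899X normal RVSP and 721 and 1052 in R899X high RVSP. Both high RVSP mice lay above the controls, but R899X high RVSP 1 lay within the range of the normal RVSP mice. The differences from control were 0.37 ± 0.21 and 0.40 ± 0.25 in its 2 probe sets (limma adjusted p = 0.873 and 0.875). That of the brighter one was 0.10 when R899X high RVSP 2 was left out, and 0.64 when its group mate was. Ccl6 read 6183 and 7381 in the controls, 6341 and 6167 in R899X normal RVSP and 6850 and 8319 in R899X high RVSP, with a difference from control of 0.16 ± 0.17 (limma adjusted p = 0.922), and 0.020 once R899X high RVSP 2 was left out. Its second probe set was also highest in R899X high RVSP 2, at 3491. By RefSeq, Ccl9 and Ccl6 are adjacent genes within a run that also holds Ccl5, Ccl3 and Ccl4. Their neighbours did not show this, since Ccl4 was lowest in that mouse, at 118, and Ccl5 read 2487.

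In the same mouse platelet markers were highest. Of 5 such markers 4 had a probe set with 1 symbol, all above 75, with sums of 2768 and 3935 in the controls, 4144 and 4031 in R899X normal RVSP and 4166 and 6265 in R899X high RVSP. Most of this sum is the platelet chemokines Pf4 and Ppbp; the other 2 markers, Itga2b and Gp9, summed to 506 and 531, 676 and 647, and 729 and 839. Alveolar macrophage markers (6 of 9 with 1 symbol, all above 75) summed to 20177 and 20304, 17151 and 17662, and 13299 and 21292 in the same order of groups. Chil3 gave the largest share of that sum (12821 in control 1), and members differed, as Fabp1 read 178 in control 1 and 1807 in control 2. The mean log2 deviation over the 6 markers was -0.36 and 0.27 in the controls, 0.05 and -0.09 in normal RVSP and -0.11 and 0.23 in high RVSP. Their part in the Ccl6 and Ccl9 values was not tested.

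Ccl8, a ligand that resident macrophages make, had the most negative difference of the family in high RVSP against control. It read 286 and 162 in the controls, 155 and 256 in R899X normal RVSP and 124 and 147 in R899X high RVSP. The high RVSP mice were the 2 lowest, but control 2 and R899X normal RVSP 1 lay close above them. The difference from control was -0.62 ± 0.34 (limma adjusted p = 0.873), with a range from -1.002 when control 2 was left out to -0.241 when control 1 was. Interstitial macrophage markers (7 of 7 above 75) summed to 5167 and 4555, 5160 and 6245, and 4647 and 6325 in the order of the groups. Without Pf4, which platelets also make, the sums were 4198 and 3473, 3904 and 5119, and 3386 and 4653, and their part in the Ccl8 values was not tested.

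Ccl5, which draws T cells and monocytes and is made by T and natural killer cells, read 3324 and 2394 in the controls, 2369 and 3256 in R899X normal RVSP and 2310 and 2487 in R899X high RVSP. The 2 high values came from different groups, and the difference of high RVSP from control was -0.23 ± 0.22 (limma adjusted p = 0.911), with 0.002 when control 1 was left out and -0.469 when control 2 was. Ccl3 and Ccl4, macrophage inflammatory proteins, were both highest in R899X high RVSP 1, at 150 and 211, and Ccl11, an eosinophil attractant also called eotaxin, read 73.4 and 94.1 in the controls and 133 and 82.2 in R899X high RVSP. Their differences of high RVSP from control were 0.07 ± 0.51, -0.10 ± 0.31 and 0.28 ± 0.34. Ccl12 differed by 0.36 ± 0.36. Of 5 eosinophil and mast cell markers with 1 symbol, 4 (Ccr3, Epx, Prg2 and Mcpt4) averaged below 75.

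CC ligands of lymphoid, thymic and barrier homing had 7 genes on the array, and 4 of them, Ccl27a, Ccl28, Ccl17 and Ccl25, read above 75. Ccl27a, a ligand of Ccr10 known from skin, read 326 and 617 in the controls, 468 and 325 in R899X normal RVSP and 356 and 342 in R899X high RVSP, through 1 probe set that can bind several transcripts. Control 2 was highest and control 1 near the lowest, and the difference of high RVSP from control was -0.35 ± 0.31 (limma adjusted p = 0.907). It was 0.095 without control 2 and -0.795 without control 1. Ccl17, a dendritic cell ligand of Ccr4, read 141 and 100 in the controls, 62.1 and 157 in R899X normal RVSP and 158 and 141 in R899X high RVSP. Both high RVSP mice lay above the controls by little in 1 case (141.5 against 140.7), and the difference was 0.29 ± 0.40 (limma adjusted p = 0.945), or 0.51 without control 1 and R899X normal RVSP 1. Ccl28, a mucosal ligand of Ccr10 and Ccr3, was 0.34 ± 0.30 higher in high than in normal RVSP (limma adjusted p = 1.0), with 134 and 163 against 127 and 101. Ccl25, a thymic and gut ligand of Ccr9, lay between 80.6 and 107 on all arrays. Ccl1, Ccl20 and Ccl22 averaged 23.4, 9.92 and 51.0.

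Cx3cl1, or fractalkine, is a ligand that endothelium and epithelium hold on their surface and that binds Cx3cr1 on monocytes. Its second brightest probe set, singled out after its values were seen, read 98.3 and 101 in the controls, 174 and 159 in R899X normal RVSP and 168 and 154 in R899X high RVSP. All 4 R899X mice lay above both controls, and mice within a group were close. The differences from control were 0.66 ± 0.24 for normal RVSP (unadjusted p = 0.0270, adjusted p = 0.987 in limma), 0.61 ± 0.24 for high RVSP (unadjusted p = 0.0353, adjusted p = 0.861 in limma) and 0.63 ± 0.21 for all R899X (unadjusted p = 0.0166, adjusted p = 0.835 in limma). Over 13 alternatives the last value stayed between 0.48 and 0.71, and it passed in 0 of them, with limma adjusted p from 0.431 to 0.999.

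The brightest probe set of Cx3cl1 did not separate the groups. It read 448 and 406 in the controls, 660 and 427 in R899X normal RVSP and 414 and 358 in R899X high RVSP, so that R899X normal RVSP 1 alone stood out. Its difference from control was 0.31 ± 0.24 for normal RVSP and -0.14 ± 0.24 for high RVSP. The other 2 probe sets of Cx3cl1 averaged 26.1 and 6.75. Xcl1, which natural killer and T cells make, ranged from 18.1 in control 1 to 101 in R899X high RVSP 1 and was below 75 on average.

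For genes with several tested probe sets, direction was often mixed. Of 9 such genes, 5 had 1 direction in all probe sets in R899X normal RVSP against control and 4 in R899X high RVSP against control. Those with mixed signs in the second were Cx3cl1, Cxcl1, Cxcl12, Cxcl13 and Cxcl14. Ccl6, Ccl9, Cxcl15 and Cxcl16 kept 1 direction there.

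Pf4 and Ppbp are chemokines of platelets whose symbols lie outside the naming pattern. Pf4 read 968 and 1082 in the controls, 1256 and 1127 in R899X normal RVSP and 1261 and 1672 in R899X high RVSP. All 4 R899X mice lay above both controls, with differences of 0.21 for normal and 0.50 for high RVSP. Ppbp read 1293 and 2322, 2212 and 2257, and 2177 and 3754, with overlap. Neither passed in limma, and both were highest in R899X high RVSP 2; they are the values that make up most of the platelet sum above.

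Of 19 chemokine receptor genes, 17 had a probe set with 1 symbol and 12 were tested, of which 0 passed in any comparison in limma. In R899X high RVSP against control the median of the 12 was 0.287, and 6 had both high RVSP mice above both controls, against 19.2% of all probe sets; 0 had both below. The 6 were Ccr1, Ccr6, Ccr7, Cxcr2, Cxcr4 and Cxcr5. Of the 12, 1 had an unadjusted limma p under 0.05 there (against 5.57% of all). In normal RVSP against control their median was 0.039, with 1 above and 1 below without overlap (against 14.4% and 15.1% of all). For high against normal RVSP it was 0.186, with 3 above and 0 below (against 16.7% and 15.5%). For all R899X against control it was 0.152, with 1 above and 0 below (against 7.52% and 7.69%). Cxcr2, the neutrophil receptor of Cxcl1 and its relatives, read 283 and 477 in the controls, 394 and 506 in R899X normal RVSP and 700 and 541 in R899X high RVSP, a difference of 0.72 from control (limma adjusted p = 0.861). Cxcr4, the receptor of Cxcl12, read 1268 and 1549, 1200 and 1896, and 2240 and 1864 in the same order, a difference of 0.54 (limma adjusted p = 0.861). Both high RVSP mice were above the controls for each, while for Cxcr4 R899X normal RVSP 2 lay between them. Cxcr5, the receptor of Cxcl13 on B cells, read 208 and 160, 132 and 157, and 309 and 223, a difference of 0.49 (limma adjusted p = 0.869).

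Markers of the cells that carry these receptors went with them only in part. Neutrophil markers (8 of 10 with 1 symbol, all above 75) summed to 44630 and 40598 in the controls, 42725 and 50179 in R899X normal RVSP and 58887 and 41579 in R899X high RVSP. B cell markers (4 of 5, all above 75) summed to 2932 and 2106, 2006 and 3137, and 4629 and 2558. R899X high RVSP 1, the highest mouse for Cxcr2, Cxcr4 and Cxcr5, was also highest in both sums. Among the B cell markers, however, Pax5 was lowest in that mouse, at 67.2. Most of the neutrophil sum was S100a8 and S100a9. Mean log2 deviations of neutrophil markers were 0.04 and 0.03, -0.24 and 0.11, and 0.25 and -0.19 in the same order of groups. R899X high RVSP 2 thus lay below both controls there, while its Cxcr2 lay above both. Those of B cell markers were -0.04 and -0.35, -0.24 and 0.16, and 0.48 and -0.02. T cell markers (6 of 8 with 1 symbol, 5 above 75) had a mean log2 deviation of 0.20 and 0.18 in R899X high RVSP, -0.14 and -0.08 in the controls and -0.25 and 0.09 in normal RVSP. Dendritic cell markers (6 of 7 with 1 symbol, 5 above 75) had 0.20 and 0.26 in high RVSP, -0.14 and -0.08 in the controls and -0.44 and 0.21 in normal RVSP. In these means both high RVSP mice were thus above both controls for the T cell and dendritic cell lists. Members differed, as Cd8a and Itgae were highest in control 1, at 194 and 687. Cd4 and Batf3, which averaged below 75, had both high RVSP mice above both controls. The dendritic cell list holds the receptors Ccr7 and Xcr1 themselves, so it is not separate from the receptor values. The part of all these cells in the receptor values was not tested. The 6 genes on the list of atypical receptors, most of which bind chemokines without the usual signalling, were all tested. Of these, 0 passed in any comparison in limma. Ackr3, which removes Cxcl12, read 4399 and 4050, 3527 and 5684, and 4540 and 4465, a difference of 0.09 for high RVSP against control. Of the 8 chemokine-like and cleaving proteins, among them Adam10 and Adam17, which shed Cx3cl1 and Cxcl16 from the cell surface, 8 were above control in high RVSP, where 49.4% of all probe sets were. Their differences ran from 0.06 to 0.20 with a median of 0.109. In 2 of the 8 both high RVSP mice read above both controls, against 19.2% of all probe sets, and 0 passed in limma.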

How the data were processed

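Whole-lung RNA of 6 mice was read on 1 Affymetrix Mouse Genome 430 2.0 array each. Per the labels' protocols, mice received heparin shortly before they were killed, and RNA came from the flushed right lung. The deposited values are intensities on a linear scale, 1 for each of 45101 probe sets and each array. The sources used here do not give the algorithm that summarised probes into these values. After trimming 2% at each end, every array had a mean of 500.0. The labels name no batch and no pairing.

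Intensities were turned into log2(intensity + 16), which understates differences of dim probe sets. Array medians then spanned 0.127, within the limit of 0.2, and arrays were not normalized again. The 64 controls on the array and the 18015 others in the lower 40% by mean were left out, which left 27022. Group means were fitted over all 6 arrays with limma 3.58.1 (R 4.3.3), leaving 3 residual degrees of freedom, with a prior variance that depends on mean intensity, and p-values were adjusted by Benjamini-Hochberg at 0.05. The procedure was tested on simulated data. Gene names come from the platform annotation, in which 932 probe sets have several symbols and 9211 are not listed. By gene identifier 34754 matched RefSeq, and 0 symbols changed.

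Members are all probe sets that fit the naming rule. A gene is represented by its brightest probe set. Values are given in full for up to 5 genes a direction and comparison whose arrays did not overlap, for the 2 brightest of each role and for a few genes always named. Members, role lists and marker lists were chosen with earlier results of these data known, so the family is described and not tested as a set. Alternatives were another pseudocount (1 or 64), no filter, quantile normalization, no trend, only the groups compared, the beta-actin ratio added to the fit, each array left out, and control 1 and R899X normal RVSP 1 left out together.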

Additional observations from a re-analysis of the deposited data

How the results depend on the processing

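The 32 members passed in 0 cases in each comparison under every alternative but 1. Leaving out control 1 and R899X normal RVSP 1 together, which left 1 mouse in each of those groups, gave 1 member in R899X high RVSP against control, the dimmest Cxcl12 probe set, at 1.56 with a limma adjusted p of 0.0266. That alternative gave 316 passing probe sets of all for high RVSP against control, 134 for normal RVSP against control, 57 for high against normal RVSP and 233 for all R899X against control. The median member difference was then 0.201, 0.248 and 0.199 for high RVSP, normal RVSP and all R899X against control, in place of 0.072, 0.085 and 0.077. For high RVSP against control the median was 0.179 once the beta-actin ratio was added, and 0.044 to 0.201 without each array in turn, the highest without control 1. Without each array in turn 0 to 2 probe sets passed for high RVSP against control, 0 to 4 for normal RVSP against control, 0 to 41 for high against normal RVSP (41 without R899X normal RVSP 2) and 0 to 5 for all R899X against control. These fits leave a group with 1 mouse, which is assumed to vary like the others. Fitting only the groups compared, 1 probe set passed for high RVSP against control. The cause of these changes was not tested. Direction was followed for 72 differences, those of the brightest probe set of each named gene that was tested and of the Cxcl12 and Cx3cl1 probe sets singled out. None of them passed in the reported fit. The largest that changed sign was that of Ccl17 in high against normal RVSP, at 0.508. Adding the beta-actin ratio turned, in normal RVSP against control, Ccl28 to 0.012, Ccl9 to -0.042, Cxcl1 to -0.077 and Cxcl14 to 0.060. Adding the beta-actin ratio turned, in high RVSP against control, Cx3cl1 to 0.202, Cxcl10 to 0.014 and Cxcl14 to 0.216. Adding the beta-actin ratio turned, in high against normal RVSP, Cxcl12 to 0.065, Cxcl14 to 0.156 and Cxcl16 to -0.008. Adding the beta-actin ratio turned, in all R899X against control, Ccl17 to -0.144, Ccl28 to 0.270, Ccl6 to -0.085 and Cxcl14 to 0.138. Quantile normalization turned, in high against normal RVSP, Cxcl10 to -0.029 and Cxcl16 to -0.008. Quantile normalization turned, in all R899X against control, Ccl28 to 0.010. Leaving out control 1 and R899X normal RVSP 1 turned, in normal RVSP against control, Ccl17 to 0.574, Ccl5 to 0.441, Ccl8 to 0.607, Cxcl1 to -0.009 and Cxcl10 to 0.329. Leaving out control 1 and R899X normal RVSP 1 turned, in high RVSP against control, Ccl5 to 0.002 and Cxcl10 to 0.141. Leaving out control 1 and R899X normal RVSP 1 turned, in high against normal RVSP, Ccl17 to -0.067, Ccl27a to 0.095, the dimmer Cx3cl1 probe set to 0.018, Cxcl10 to -0.189, Cxcl12 to 0.015, Cxcl14 to 0.438 and Cxcl16 to -0.051. Leaving out control 1 and R899X normal RVSP 1 turned, in all R899X against control, Ccl28 to 0.201, Ccl5 to 0.221, Ccl6 to -0.113, Ccl8 to 0.183, Cx3cl1 to -0.002 and Cxcl10 to 0.235. Without each array in turn, differences that changed sign in normal RVSP against control ranged as follows: Ccl17 -0.790 to 0.359, Ccl27a -0.638 to 0.251, Ccl28 -0.459 to 0.104, Ccl5 -0.258 to 0.213, Ccl6 -0.239 to 0.016, Ccl8 -0.489 to 0.272, Ccl9 -0.023 to 0.108, Cxcl1 -0.091 to 0.211, Cxcl10 -0.356 to 0.115, Cxcl13 -0.030 to 0.151, Cxcl14 -0.758 to 0.326 and Cxcl15 -0.075 to 0.361. Without each array in turn, differences that changed sign in high RVSP against control ranged as follows: Ccl27a -0.795 to 0.095, Ccl28 -0.118 to 0.445, Ccl5 -0.469 to 0.002, Cxcl1 -0.297 to 0.103, Cxcl10 -0.345 to 0.197, Cxcl12 -0.070 to 0.312, Cxcl15 -0.075 to 0.361 and Cxcl17 -0.210 to 0.177. Without each array in turn, differences that changed sign in high against normal RVSP ranged as follows: Ccl17 -0.067 to 1.083, Ccl27a -0.408 to 0.095, Ccl5 -0.440 to 0.017, the dimmer Cx3cl1 probe set -0.102 to 0.018, Cxcl1 -0.357 to 0.042, Cxcl10 -0.224 to 0.318, Cxcl12 -0.267 to 0.089, Cxcl14 -0.645 to 0.438, Cxcl15 -0.012 to 0.013 and Cxcl16 -0.121 to 0.124. Without each array in turn, differences that changed sign in all R899X against control ranged as follows: Ccl17 -0.249 to 0.326, Ccl27a -0.716 to 0.173, Ccl28 -0.288 to 0.274, Ccl5 -0.363 to 0.107, Ccl6 -0.103 to 0.152, Ccl8 -0.745 to 0.016, Cx3cl1 -0.070 to 0.236, Cxcl1 -0.169 to 0.133, Cxcl10 -0.312 to 0.118, Cxcl12 -0.025 to 0.356, Cxcl14 -0.539 to 0.003 and Cxcl15 -0.075 to 0.361. Over all 32 members, 14 kept their sign under every alternative for high RVSP against control, 10 for normal RVSP against control, 12 for high against normal RVSP and 11 for all R899X against control. The number of mice and, for the 19 members not above 75, signal near background limit these values. No paired analysis was possible because the labels give groups no shared replicate numbers.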

Other observations

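The count of members at their highest or lowest differed between mice. R899X normal RVSP 1 held the highest value of 6 of the 32 tested members and the lowest of 4, against 21.7% and 19.3% of all tested probe sets. R899X high RVSP 2 held the highest value of 9 members and the lowest of 2, against 15.6% and 14.7% of all. Control 2 held the highest value of 3 members and the lowest of 9, against 15.2% and 17.1% of all. Il6, an inflammatory cytokine, read 17.5 in R899X normal RVSP 1, 648 in R899X normal RVSP 2 and 157 to 474 in the other 4 mice. Heart muscle markers (4 of 5 above 75) had a mean log2 deviation of 0.49 in R899X normal RVSP 1 and -0.90 in R899X high RVSP 2, and skeletal muscle markers (3 of 4 above 75) had 0.42 in R899X normal RVSP 1. Their part in the member values of these mice was not tested.

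Member genes lie together in the genome. By the order of protein-coding genes in RefSeq, 18 of the 33 form 4 runs with no other such gene between. They are Ccl2, Ccl7, Ccl11, Ccl12, Ccl8 and Ccl1, then Ccl5, Ccl9, Ccl6, Ccl3 and Ccl4, then Cxcl3, Cxcl15, Cxcl1 and Cxcl2, and last Ccl22, Cx3cl1 and Ccl17. Of 9 tested genes on the list of NF-kB and its feedback genes, 0 passed in any comparison in limma, with a median of 0.010 for high RVSP against control.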
